A study of Rattus norvegicus with 12 samples.

Results

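A set of 10 genes that mark or drive cardiac fibroblasts was followed in infarcted rat hearts: *Pdgfra*, *Tcf21*, *Wt1*, *Prrx1*, *Twist1*, *Meox1*, *Scx*, *Runx1*, *Runx2* and *Sox9*. They were chosen by gene symbol, out of 30560 genes listed in the count table. All 10 had at least 10 reads in total over the 12 libraries and so were among the 18182 genes tested. RNA was sequenced from heart sections that had been fixed in formalin and embedded in paraffin, taken from male Wistar rats, with 1 library per rat and 4 rats in each of 3 groups. The rats were 7 weeks old at surgery. Sham rats had their chest opened without the coronary suture and received vehicle. MI rats had a myocardial infarction by ligation of the left anterior descending coronary artery and received the same vehicle, carboxymethylcellulose. MI + UA rats had the same ligation and received Urolithin A (UA), a gut microbial metabolite of ellagitannins given by oral gavage and labelled as 50 mg/ml, although the sources differ on its dose and on when it was started. Treatment lasted 8 weeks in all groups. The tissue was not sorted by cell type. The paper describes paraffin blocks of the apical, middle and basal left ventricle and does not say which of them gave the RNA. No sequencing batch is named for these libraries.

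Fibroblasts are the main matrix-producing cells of the heart. Most descend from the epicardium, the outer layer of the heart, under the control of factors such as *Tcf21* and *Wt1*, and they carry the receptor PDGFRα on their surface. After infarction they divide, turn into contractile, collagen-secreting myofibroblasts, and later persist in the mature scar, where some adopt a matrifibrocyte state with genes of cartilage, bone and tendon. *Meox1*, *Scx*, the Runx factors, *Sox9*, *Twist1* and *Prrx1* have each been tied to these transitions in fibroblasts of the heart or other organs.

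The deposited table names the genes by Ensembl identifier, ENSRNOG00000002244 for *Pdgfra*, ENSRNOG00000016700 for *Tcf21*, ENSRNOG00000013074 for *Wt1*, ENSRNOG00000003720 for *Prrx1* and ENSRNOG00000011101 for *Twist1*. *Meox1* is ENSRNOG00000020803, *Scx* is ENSRNOG00000021812, *Runx1* is ENSRNOG00000001704, *Runx2* is ENSRNOG00000020193 and *Sox9* is ENSRNOG00000002607.

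Start-site sequences from RefSeq on the GRCr8 build, covering 250 bases before to 50 bases after the start, matched 7 of the 10 members at 8 start sites. *Meox1*, *Scx* and *Sox9* were not matched. Both strands were searched for the letters of 7 motifs: the E-box CANNTG bound by TWIST1, TCF21 and SCX with their partners, the RUNX motif TGTGGT, AP-1 (TGANTCA), TEAD (GGAATG), SMAD (CAGAC), the GC box (GGGCGG) and the TATA box (TATAAA). The distal of the *Runx2* start sites, chr9:23664808-23665107 on the plus strand, held 3 RUNX motifs, whose first letters lie at -76, +28 and +36, counting the first transcribed base as +1. At least 1 RUNX motif occurred in 17.3% of 33469 start-site windows of this length. The *Runx2* motifs at -76 and +36 overlapped E-boxes that begin at -74 and +40. The other *Runx2* start, chr9:23742990-23743289 on the plus strand, had 1 E-box and no RUNX letters, and the *Runx1* start, chr11:45421276-45421575 on the minus strand, likewise. *Pdgfra*, chr14:33408467-33408766 on the minus strand, held 1 AP-1 motif at -35, a match found in 7.33% of windows. *Prrx1*, chr13:78204024-78204323 on the minus strand, held none of the E-box, RUNX or AP-1 letters, and the E-box letters occurred in 72.1% of windows. TEAD letters (14.2% of windows) and TATA letters (14.2%) were in no member window. SMAD letters (50.1%) were in those of *Tcf21*, *Twist1*, *Prrx1* and *Pdgfra*, and GC box letters (33.1%) in those of *Runx2*, *Twist1* and *Prrx1*. These are letter matches in one window of sequence and not measured binding sites. The windows of the distal *Runx2* start, *Runx1* and *Pdgfra* are printed 5′ to 3′ because these genes rose in MI and because their windows hold the RUNX and AP-1 matches described, or in *Runx1* lack them. Capitals mark RUNX and AP-1 matches, and a RUNX motif on the opposite strand reads ACCACA.
Runx2 distal start: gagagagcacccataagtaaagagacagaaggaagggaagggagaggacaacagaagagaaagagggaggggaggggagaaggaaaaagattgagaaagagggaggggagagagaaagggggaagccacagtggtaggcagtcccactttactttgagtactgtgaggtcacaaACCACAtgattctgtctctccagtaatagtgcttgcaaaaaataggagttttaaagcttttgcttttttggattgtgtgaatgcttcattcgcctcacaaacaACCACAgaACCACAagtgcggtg
Runx1 start: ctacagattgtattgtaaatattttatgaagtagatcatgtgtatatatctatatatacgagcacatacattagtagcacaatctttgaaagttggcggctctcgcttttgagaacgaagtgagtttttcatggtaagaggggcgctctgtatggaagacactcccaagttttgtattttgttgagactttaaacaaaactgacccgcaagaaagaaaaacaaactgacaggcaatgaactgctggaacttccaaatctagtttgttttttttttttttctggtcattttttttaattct
Pdgfra start: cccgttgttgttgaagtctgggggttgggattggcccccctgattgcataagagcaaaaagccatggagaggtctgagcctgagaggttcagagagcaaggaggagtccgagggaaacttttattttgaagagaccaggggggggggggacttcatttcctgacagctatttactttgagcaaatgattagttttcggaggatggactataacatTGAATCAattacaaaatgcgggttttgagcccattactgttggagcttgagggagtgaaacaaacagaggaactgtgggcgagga

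Reads on genes numbered 6228706 to 8958828 per Sham library, 6829591 to 12743184 per MI library and 6819444 to 19031695 per MI + UA library. Between 50.15% and 58.55% of them fell on mitochondrially encoded genes. *Meox1* had 3 to 18 reads per Sham library, *Twist1* 6 to 23 and *Pdgfra* 569 to 767. Cardiomyocyte markers were abundant in every library, with 9 of 10 tested and a summed level of 14170 to 23710 CPM. The unit CPM is the count of a gene scaled to a common library size, with edgeR's trimmed mean (TMM) factors. The MI library of rat 36 stood apart in cartilage genes. It held 29.6 CPM of *Col2a1*, the collagen of hyaline cartilage, which was listed at 0 in the other MI rats and reached at most 0.376 CPM in any other library. Its *Acan*, the cartilage proteoglycan aggrecan, was 9.21 CPM against at most 2.00 CPM elsewhere, and its *Adipoq*, an adipocyte hormone, was 2.12 CPM against at most 0.286 CPM. Rat 66 is MI + UA by its sample label but appears with vehicle-treated MI rats in the study's echocardiography listing, and it was kept in MI + UA. The values without rat 36, and with rat 66 counted in MI, are given where they matter.

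MI versus Sham asked which of these genes differ in the infarcted heart. In MI, 6 of 10 members, *Pdgfra*, *Prrx1*, *Meox1*, *Runx1*, *Runx2* and *Sox9*, were higher, and 0 were lower. A gene counted as changed when its adjusted p was under 0.05 in edgeR's quasi-likelihood test, with Benjamini-Hochberg adjustment over all genes tested. Of all genes tested 11.4% were changed, and 5.82% were higher. The same 6 members did not overlap between the groups, against 15.7% of all genes in either direction and 8.12% with MI higher. The median log2 fold change was 0.64 over the members and 0.03 over all genes tested. In a bulk section, more cells of a type and more RNA per cell cannot be told apart. DESeq2 and each of the 8 fits that left out 1 rat called the same 6 members, and none of them called *Tcf21*, *Twist1*, *Wt1* or *Scx*. The share of reads on genes, among those on genes, ambiguous or on no feature, was 50.4% to 53.4% in Sham and 47.6% to 49.8% in MI, so it also separated the groups, and its part in the members' changes was not tested. The plot of member levels shows each rat.

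**Figure D1:**
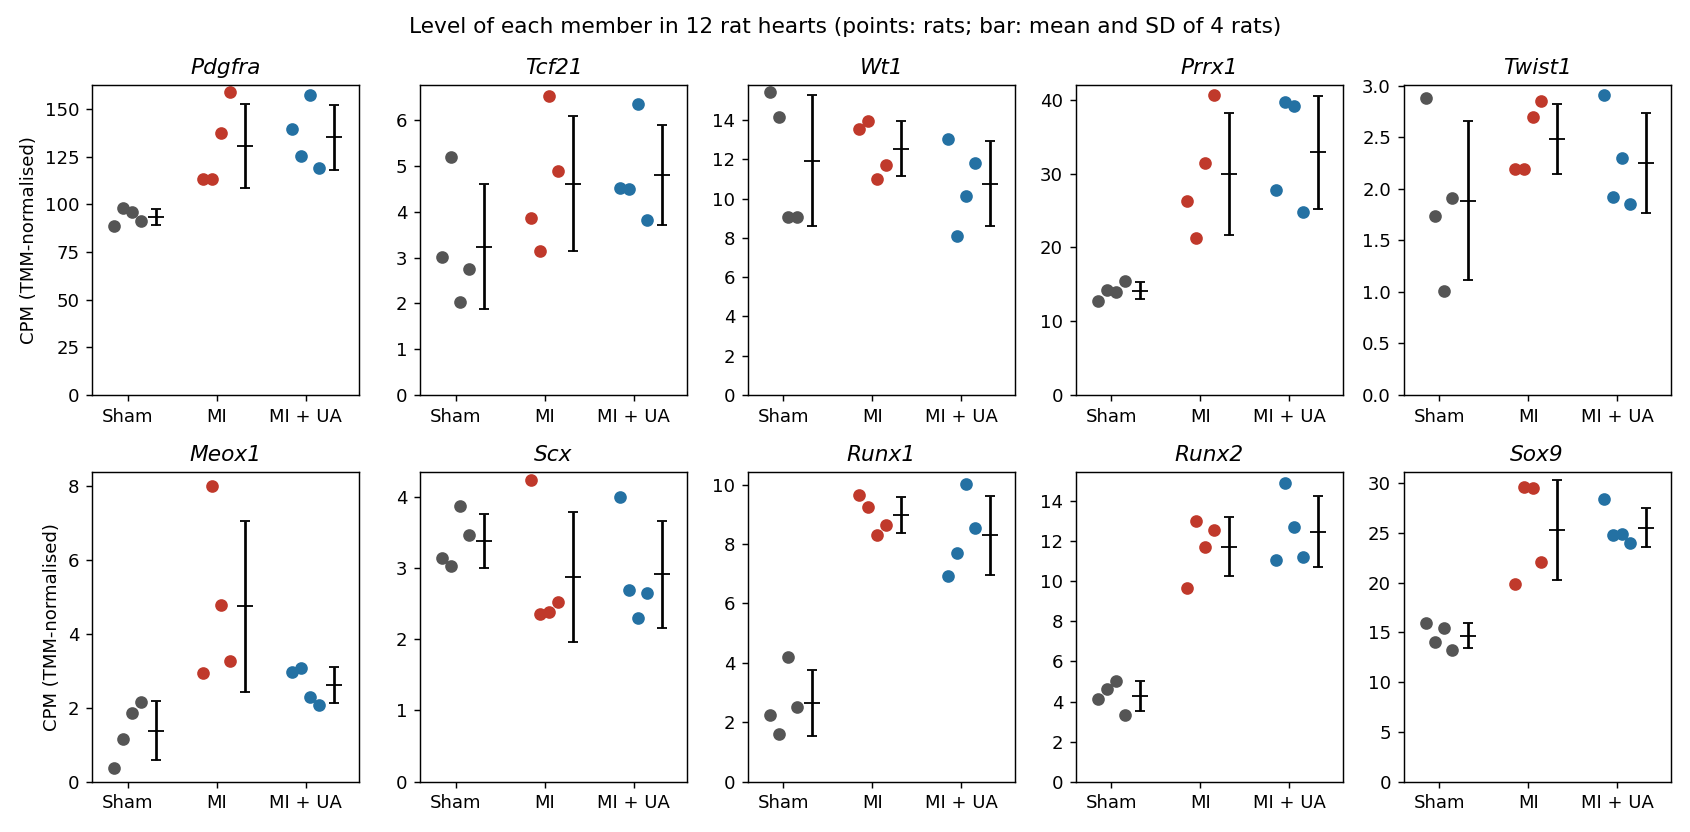
Level of each member in CPM (TMM-normalised, linear axis from 0) in 4 Sham, 4 MI and 4 MI + UA rats, with 1 point per rat and the mean and SD of each group beside the points. For *Pdgfra*, *Prrx1*, *Meox1*, *Runx1*, *Runx2* and *Sox9* every MI rat lies above every Sham rat, and MI + UA overlaps MI in all 10 panels.

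*Pdgfra*, the receptor tyrosine kinase for platelet-derived growth factor that marks resident fibroblasts, had a small rise. Its level was 88.4, 98.2, 95.8 and 91.5 CPM in Sham rats 12, 17, 32 and 38. In MI rats 36, 57, 61 and 89 it was 113.5, 113.1, 137.3 and 159.1 CPM. All MI rats were above all Sham rats, and the Sham rats lay close together (93.5 ± 4.34 CPM, SD, n = 4) while MI spread more widely (130.7 ± 22.1 CPM, SD, n = 4). MI exceeded Sham by 0.49 on the log2 scale (standard error 0.11, edgeR adjusted p = 0.00504), or 1.40-fold with a 95% interval of 1.20 to 1.64. Without rat 36 it was 0.55 (edgeR adjusted p = 0.00305).

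*Tcf21*, a basic helix-loop-helix (bHLH) factor of the epicardium and of resting fibroblasts, varied among Sham rats as much as between groups. It measured 3.01, 5.20, 2.02 and 2.74 CPM in Sham and 3.88, 3.14, 6.54 and 4.89 CPM in MI, in the order of rats above. The groups overlapped, with Sham rat 17 above 3 of the 4 MI rats. In edgeR the log2 fold change was 0.52 (standard error 0.28, edgeR adjusted p = 0.274), and its 95% interval of -0.06 to 1.09 includes 0. Without Sham rat 17 it was 0.82 (edgeR adjusted p = 0.0766), and without MI rat 61 it was 0.31 (edgeR adjusted p = 0.600). *Wt1*, a zinc finger factor of the epicardium, was 15.4, 14.1, 9.09 and 9.06 CPM in Sham and 13.5, 13.96, 11.0 and 11.7 CPM in MI. Its Sham rats fell into a higher and a lower pair, and all MI rats lay between them. For *Wt1* the log2 fold change was 0.06 (standard error 0.18, edgeR adjusted p = 0.881), with a 95% interval of -0.31 to 0.44. Epicardial and mesothelial markers were at low levels. Their 6 tested genes summed to 1.18 to 3.51 CPM in Sham and 5.26 to 6.95 CPM in MI, and 1 of the 6, *Aldh1a2* (a retinoic acid synthesising enzyme), was higher in MI. That count was 0 without Sham rat 32 or MI rat 89. The other 5 ran from -0.39 (*Upk3b*) to 2.32 (*Upk1b*) in log2 fold change without passing, and the median of the 6 was 0.97. That median was 1.57 without Sham rat 17 and 0.74 without Sham rat 32.

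*Prrx1*, a homeobox factor of mesenchymal cells, was 12.8, 14.3, 13.97 and 15.5 CPM in Sham. In MI it was 26.3, 21.3, 31.5 and 40.7 CPM, so the lowest MI rat was still above the highest Sham rat. The rise was 1.09 in log2 fold change (standard error 0.18, edgeR adjusted p = 0.00042), or 2.13-fold with a 95% interval of 1.64 to 2.77. *Twist1*, a bHLH factor of mesenchymal transition, gave 6 to 23 reads in Sham and 14 to 35 in MI. It was 2.89, 1.73, 1.01 and 1.91 CPM in Sham and 2.19, 2.20, 2.70 and 2.85 CPM in MI, and the Sham rats covered the whole MI range. The log2 fold change, 0.37, has a standard error of 0.30 and a 95% interval of -0.24 to 0.99 (edgeR adjusted p = 0.491). It was 0.65 without Sham rat 12 and 0.19 without Sham rat 32.

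*Meox1*, a homeobox factor induced in activated cardiac fibroblasts, had few reads in Sham. It measured 0.376, 1.16, 1.85 and 2.15 CPM in Sham, from 3, 8, 11 and 18 reads. In MI it was 2.92, 8.00, 4.77 and 3.26 CPM, from 40, 51, 46 and 40 reads. No MI rat overlapped Sham, and rat 57 was well above the other MI rats. The log2 fold change was 1.72 (standard error 0.39, edgeR adjusted p = 0.00535), or 3.29-fold with a 95% interval of 1.88 to 5.76. Without rat 57 it was 1.39 (edgeR adjusted p = 0.0169).

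*Scx*, the bHLH factor of tendon cells that drives collagen genes, did not pass the test. It measured 3.14, 3.03, 3.87 and 3.46 CPM in Sham and 4.24, 2.35, 2.39 and 2.53 CPM in MI. Of the 4 MI rats, 3 were below every Sham rat, and rat 36, the library with cartilage genes, was above every Sham rat. The log2 fold change was -0.19 (standard error 0.26, edgeR adjusted p = 0.727) over all rats. Without rat 36 it was -0.47 (standard error 0.26, edgeR adjusted p = 0.312).

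*Runx1*, a Runt-domain factor of blood and of injured heart cells, had a fold change close to that of *Meox1*. It was 2.26, 1.59, 4.21 and 2.50 CPM in Sham and 9.65, 9.25, 8.30 and 8.64 CPM in MI. The MI rats were tightly grouped (8.96 ± 0.605 CPM, SD, n = 4), and each was well above the highest Sham rat. Its log2 fold change was 1.79 (standard error 0.22, edgeR adjusted p = 1.9e-05), or 3.45-fold with a 95% interval of 2.52 to 4.73. *Runx2*, its relative that governs bone formation, was 4.14, 4.62, 5.05 and 3.34 CPM in Sham and 9.65, 13.02, 11.7 and 12.6 CPM in MI. Rat 36 was the lowest MI rat for *Runx2*, still above all Sham rats. The *Runx2* log2 fold change was 1.46 (standard error 0.17, edgeR adjusted p = 1e-05), or 2.75-fold with a 95% interval of 2.15 to 3.51. The 95% intervals of the 2 Runx genes overlapped, and the difference between their changes was not tested. Reads of *Runx1* per read of *Runx2* ranged from 0.344 to 0.833 in Sham, 0.688 to 1.00 in MI and 0.517 to 0.787 in MI + UA, so the ranges overlapped in all 3 groups.

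*Sox9*, the factor that drives cartilage matrix genes such as *Col2a1* and *Acan*, was 15.9, 14, 15.5 and 13.2 CPM in Sham. It was 19.9, 29.6, 29.5 and 22.1 CPM in MI, all above Sham. *Sox9* rose by 0.77 on the log2 scale (standard error 0.13, edgeR adjusted p = 0.00059), or 1.71-fold with a 95% interval of 1.41 to 2.07. Rat 36, whose *Col2a1* and *Acan* were the highest of the 12 libraries, had the lowest *Sox9* of the MI rats. Without it the log2 fold change of *Sox9* was 0.88 (edgeR adjusted p = 0.000179).

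**Figure D2:**
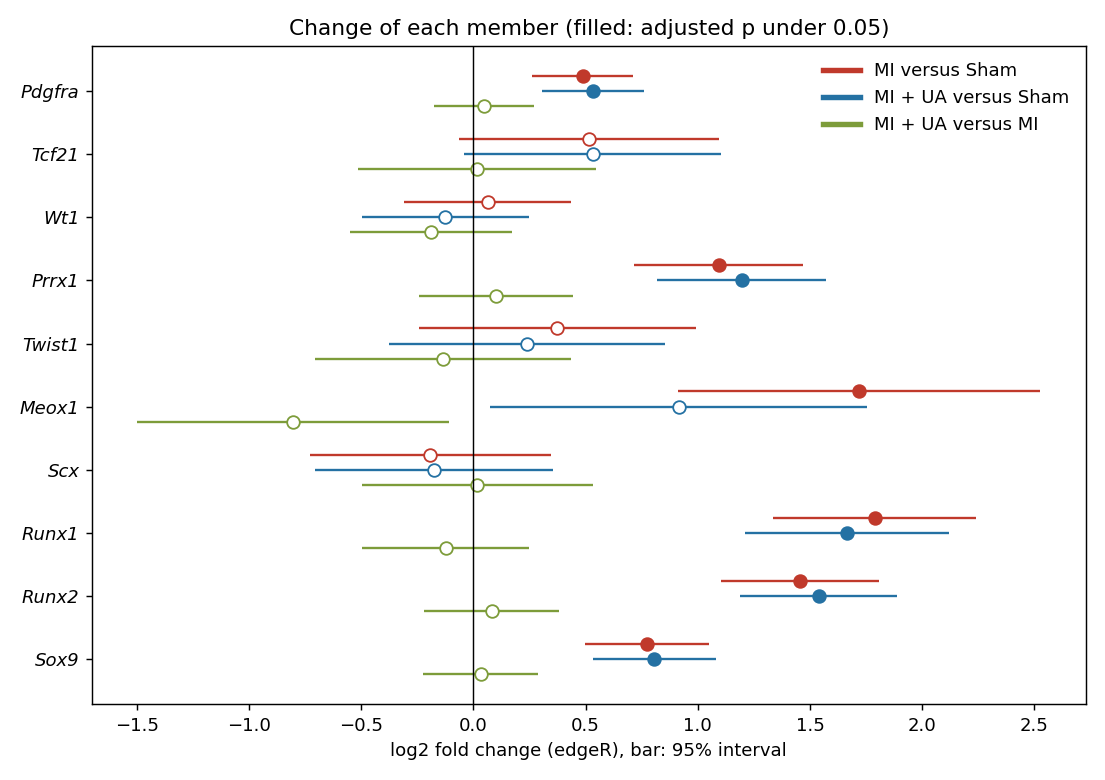
Log2 fold change of each member (x axis) in MI versus Sham, MI + UA versus Sham and MI + UA versus MI, with bars for the 95% interval of edgeR's quasi-likelihood fit and filled points for an adjusted p under 0.05. *Runx1*, *Meox1* and *Runx2* lie farthest to the right in MI versus Sham, and no point is filled in MI + UA versus MI.

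Other genes of the same pathways were counted from lists. Among 20 tested partners and close relatives of the members, 3 were higher in MI and 0 lower (median log2 fold change 0.15, or 0.086 without Sham rat 32). These were *Sox5*, a partner of SOX9 in cartilage (log2 fold change 0.88, edgeR adjusted p = 0.0273), *Id2*, an inhibitor of bHLH factors (0.80, adjusted p = 0.00632), and *Tle3*, a co-repressor of Runx factors (0.61, adjusted p = 0.00639). *Id2* and *Tle3* passed whichever Sham or MI rat was left out, while *Sox5* missed the threshold without Sham rat 12, 32 or 38 or without MI rat 57 or 89. The common partner subunit of the Runx factors, *Cbfb*, was 22.4 CPM in Sham and 23.9 CPM in MI (log2 fold change 0.10, edgeR adjusted p = 0.667). The paralogues *Meox2*, *Runx3*, *Twist2*, *Prrx2*, *Sox8* and *Sox6* did not pass the test in edgeR with all rats. Of these, *Prrx2* was 0.317 CPM in Sham and 1.21 CPM in MI (edgeR adjusted p = 0.0645), and *Sox8* was 0.260 and 0.869 CPM (adjusted p = 0.0536). In MI + UA versus Sham, *Prrx2* (edgeR adjusted p = 0.0468) and *Sox8* (adjusted p = 0.0214) were higher. The count of partners and relatives higher in MI was 4 in DESeq2, with no filter on low counts and with rat 66 counted in MI. It was also 4 without Sham rat 17, MI rat 36 or MI rat 61. Of the 5 tested genes of the PDGF system besides *Pdgfra*, the receptor *Pdgfrb* (0.78, edgeR adjusted p = 2.51e-05) and the ligand *Pdgfd* (0.81, adjusted p = 0.0172) were higher in MI. *Pdgfrb* passed whichever Sham or MI rat was left out, while *Pdgfd* missed the threshold without Sham rat 17, Sham rat 38, MI rat 61 or MI rat 89. The ligands *Pdgfa*, *Pdgfb* and *Pdgfc* were not past the threshold with all rats. Without Sham rat 32, 3 of the 5 genes were higher. Of 22 other regulators of fibroblasts and mesenchyme, 4 were higher (median log2 fold change 0.15). These were *Snai1* (0.81), *Tbx18* (0.80), *Nfatc4* (0.50) and *Klf4* (0.38), and the genes of the SMAD, TEAD, YAP and serum response factor pathways in the list did not pass. The count fell to 2, *Snai1* and *Tbx18*, without Sham rat 12 or MI rat 61.

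Fibroblast markers and matrix genes were counted in the same way. Resident fibroblast markers were higher at 11 of 14 genes (median log2 fold change 0.91), with *Thy1*, a surface glycoprotein, at 2.11 and *Pi16*, a marker of perivascular and adventitial fibroblasts, at 1.72. Activated fibroblast markers were higher at 14 of 16 genes (median 1.70), with *Postn*, the matrix protein periostin, at 2.65 and *Ltbp2*, a matrix protein of elastic fibres, at 4.46. Their summed level was 864 to 1083 CPM in Sham and 2093 to 3576 CPM in MI. Cartilage, bone and tendon genes were higher at 13 of 22 (median 3.20), and at 10 of 19 (median 1.87) without rat 36. With *Bglap* and *Ibsp*, at 0 in every Sham library, set to the lower bound that 3 counts over the Sham group allow, the median of the 22 was 1.64. Without that rat *Col2a1* had too few reads to be tested, and *Acan* and *Hapln1* missed the threshold (edgeR adjusted p = 0.138 and 0.264). *Comp*, a cartilage and tendon matrix protein, was 0.126 to 0.239 CPM in Sham and 4.23 to 11.3 CPM in MI, with all MI rats above all Sham rats. *Col2a1* passed the test (edgeR adjusted p = 0.0254), but the groups overlapped and rat 36 alone held its reads in MI.

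Markers of other cell types moved in the same comparison. Cardiomyocyte markers were lower at 8 of 9 tested genes and higher at 0, including *Myh6* (myosin heavy chain, log2 fold change -1.08) and *Tnni3* (cardiac troponin I, -0.67), and their sum was 19600 to 23710 CPM in Sham and 14170 to 15320 CPM in MI. Macrophage and leukocyte markers were higher at 7 of 13, with *Mrc1* (a mannose receptor of tissue macrophages) at 1.54 and *Cd14* at 1.40, and their sum was 161.1 to 188.4 CPM in Sham and 294.3 to 448.7 CPM in MI. *Runx1* is also used by blood cells, and the pan-leukocyte gene *Ptprc* ranged from 44.0 to 50.9 CPM in Sham and from 56.6 to 75.3 CPM in MI. Of 8 endothelial markers 1 was lower, *Kdr* (-0.50), and 0 were higher. Of 8 smooth muscle and pericyte markers 1 was higher, *Cnn1* (1.56), but 0 were without Sham rat 12, Sham rat 17, MI rat 36 or MI rat 61, or with rat 66 counted in MI, and 2 were without MI rat 57. None of 3 adipocyte markers, *Fabp4* (-0.28) and *Plin1* (1.89) included, or of 6 proliferation genes, *Mki67* (0.18) and *Pcna* (-0.16) included, passed the test in edgeR, although 1 adipocyte marker was lower without Sham rat 17. The part of these cell types in the members' changes was not tested.

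**Figure D3:**
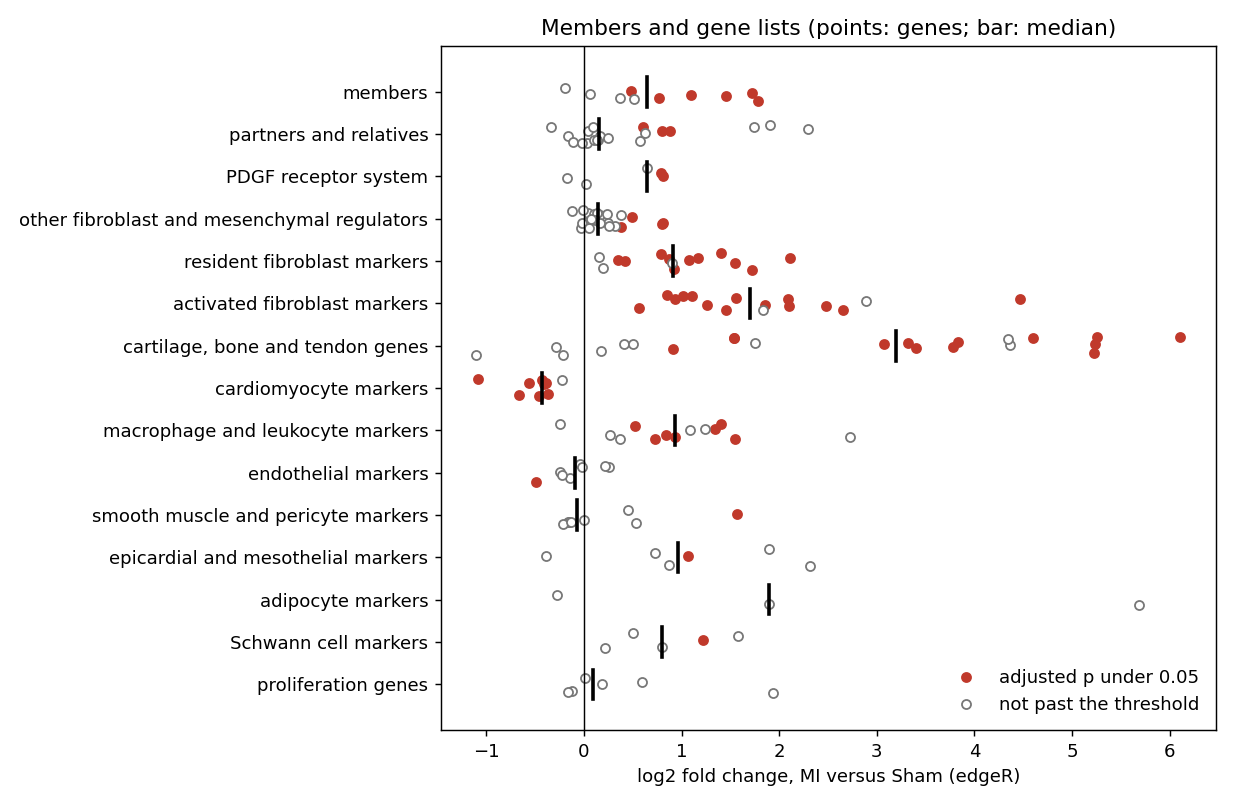
Log2 fold change in MI versus Sham (x axis) of the members and of the tested genes of each list, 1 point per gene, with red points for an edgeR adjusted p under 0.05 and a bar at the median. The median of the members, 0.64, lies below those of resident (0.91) and activated (1.70) fibroblast markers, and cardiomyocyte markers lie to the left of 0.

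To describe how far the members followed the fibroblast markers of their own library, the mean log2 CPM of the 14 resident fibroblast markers was subtracted from each member's log2 CPM. Sham rats had a mean of 5.33 ± 0.11 and MI rats one of 6.28 ± 0.24 (SD, n = 4 each). The difference of 0.95 had an exact permutation p of 0.0286, the smallest that 4 rats against 4 allow. On this relative scale 3 members did not overlap between MI and Sham, against 56.4% of all genes on the same scale, so the members' share is below that of all genes. *Scx* was lower relative to the markers by a log2 difference of -1.21, from -3.54 ± 0.14 in Sham to -4.75 ± 0.54 in MI (SD, n = 4). *Pdgfra* was also lower, by -0.48, from 1.22 ± 0.09 to 0.74 ± 0.08 (SD, n = 4), although its CPM rose. *Runx2* was higher by 0.49, from -3.21 ± 0.30 to -2.72 ± 0.27 (SD, n = 4). Each of the 3 had an exact permutation p of 0.0286 and an adjusted p of 0.0952 over the 10 members, which misses the threshold. With rat 66 counted in MI, *Runx2* (0.52) and *Pdgfra* (-0.46) reached an exact permutation adjusted p of 0.0397, while 53.7% of all genes did not overlap. *Runx1* (0.85, exact permutation p = 0.0857) and *Meox1* (0.86, p = 0.229) were on the side of *Runx2*, each with overlapping groups. *Wt1* (-0.84, exact permutation p = 0.0571), *Twist1* (-0.49, p = 0.143) and *Tcf21* (-0.43, p = 0.229) were on the side of *Scx*, also with overlapping groups. With this reference, the relative log2 differences of *Prrx1* (0.09) and *Sox9* (-0.19) were the smallest. The choice of reference decides several of these values. With the median of the resident markers in place of their mean, *Scx* and *Runx2* overlapped (exact permutation p = 0.0571 each), and of the members *Pdgfra* alone separated, against 45.9% of all genes. With the 16 activated fibroblast markers, which rose further, the log2 difference became -1.98 for *Scx*, -1.61 for *Wt1*, -1.25 for *Pdgfra* and -0.28 for *Runx2*, so that *Runx2* changed sign, as did *Prrx1* (-0.68). *Runx1* (0.08) and *Meox1* (0.09) then had the smallest differences, and *Sox9* was at -0.96. On that scale 6 members, *Scx*, *Wt1*, *Pdgfra*, *Tcf21*, *Twist1* and *Prrx1*, did not overlap and had an exact permutation adjusted p of 0.0476 each, against 75.8% of all genes not overlapping, so this count is not a result about the members. Without rat 36 the *Scx* difference was -1.47 with the other 3 MI rats all below the Sham rats.

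**Figure D4:**
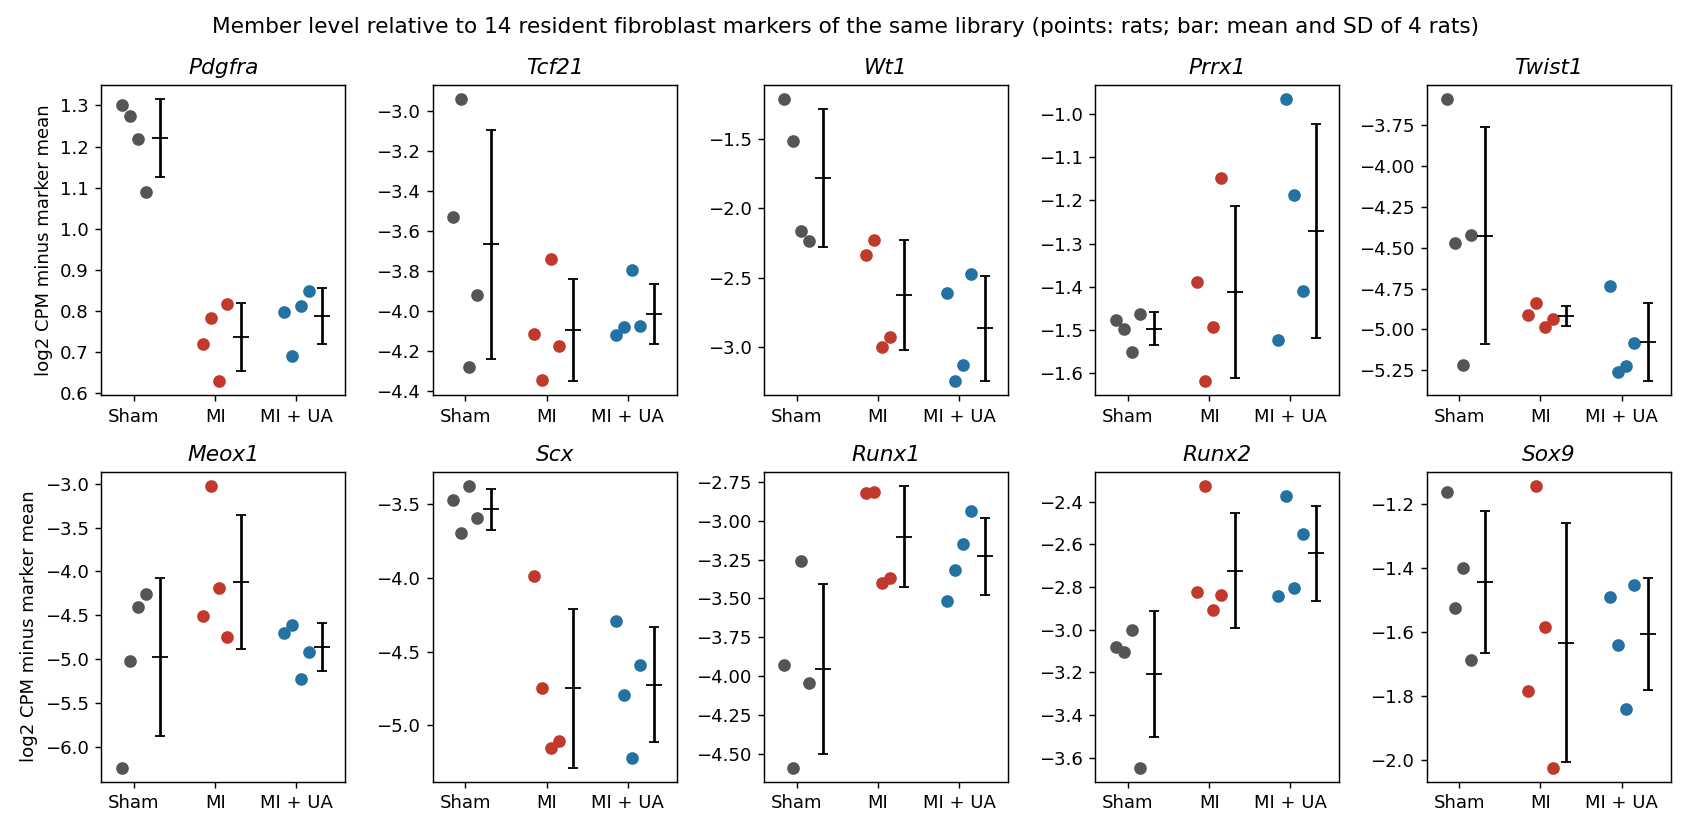
Log2 CPM of each member minus the mean log2 CPM of 14 resident fibroblast markers in the same library (y axis, own range per panel), with 1 point per rat and the mean and SD of 4 rats beside them. *Scx* and *Pdgfra* lie lower in MI than in Sham without overlap, *Runx2* lies higher without overlap, and the 3 exact permutation p-values are 0.0286 each before adjustment. With the median of the markers as reference, *Scx* and *Runx2* overlap.

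MI + UA versus MI asked whether UA changed the members in infarcted hearts. None of the 10 passed the threshold in edgeR or DESeq2, and of all genes 0% did. At an unadjusted p under 0.05, 1 member (*Meox1*) passed in edgeR, against 3.79% of all genes. No member separated the groups, against 2.34% of all genes, and the median log2 fold change of the members was 0.02. *Meox1* was 2.97, 3.08, 2.30 and 2.08 CPM in MI + UA rats 29, 58, 64 and 66. The 2 highest MI + UA rats lay just above the lowest MI rat, and the other 2 lay below all MI rats. The log2 fold change was -0.80 (standard error 0.33, edgeR unadjusted p = 0.0253, adjusted p = 0.9997), with a 95% interval of -1.50 to -0.11. Without MI rat 57, the rat of highest *Meox1*, it was -0.47 (edgeR unadjusted p = 0.151, adjusted p = 0.9997). With rat 66 counted in MI it was -0.50 (standard error 0.38). The unadjusted call was lost in both of these fits, and also without rat 66 (-0.69, standard error 0.37) and with every library thinned to the smallest total (-0.73, standard error 0.37).

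The other members lay close to their MI values under UA. *Runx1* was 6.91, 7.71, 10.0 and 8.55 CPM, and *Runx2* was 11.1, 14.9, 12.7 and 11.2 CPM in rats 29, 58, 64 and 66. *Sox9* was 28.5, 24.8, 24.9 and 24.0 CPM, *Prrx1* 27.8, 39.7, 39.3 and 24.8 CPM, and *Pdgfra* 139.4, 125.2, 157.4 and 119.0 CPM. All of these overlapped the MI rats. *Tcf21* (3.83 to 6.36 CPM), *Twist1* (1.86 to 2.91 CPM), *Wt1* (8.09 to 13.03 CPM) and *Scx* (2.30 to 4.00 CPM) overlapped MI and Sham alike. The log2 fold changes of these 9 genes ran from -0.19 (*Wt1*) to 0.10 (*Prrx1*). The 95% intervals show what these data could have missed. They were -0.18 to 0.27 for *Pdgfra*, -0.22 to 0.29 for *Sox9*, -0.22 to 0.38 for *Runx2* and -0.50 to 0.25 for *Runx1*. They were wider for 2 genes with few reads, -0.71 to 0.43 for *Twist1* and -0.52 to 0.55 for *Tcf21*. Relative to resident fibroblast markers, whose mean was 6.28 ± 0.18 (SD, n = 4) in MI + UA, no member passed the threshold against MI (smallest exact permutation p = 0.0857, for *Meox1*, adjusted p = 0.857). In the 14 gene lists, 0 genes passed the threshold in this comparison with edgeR or DESeq2, and 1, *Col2a1*, whose MI reads were all from rat 36, was lower in edgeR with no filter on low counts.

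MI + UA versus Sham shares its Sham rats with the first comparison and its MI + UA rats with the second. The members higher in MI + UA numbered 5, *Pdgfra*, *Prrx1*, *Runx1*, *Runx2* and *Sox9*, while 0 were lower, and 9.44% of all genes were changed and 5.16% were higher. These 5 separated the groups, against 14.3% of all genes. The log2 fold changes were 1.66 for *Runx1* (1.79 in MI), 1.54 for *Runx2* (1.46 in MI), 1.20 for *Prrx1* (1.09 in MI), 0.81 for *Sox9* (0.77 in MI) and 0.53 for *Pdgfra* (0.49 in MI). The sixth gene, *Meox1*, had a 95% interval of 0.08 to 1.75 around its log2 fold change of 0.91 (edgeR adjusted p = 0.180, standard error 0.40). For this gene, of the 16 pairs of an MI + UA and a Sham rat, the MI + UA rat was higher in 15. Markers of cell types moved in this comparison too. Resident fibroblast markers were higher at 11 of 14 genes, activated fibroblast markers at 13 of 16 and macrophage and leukocyte markers at 8 of 13, while cardiomyocyte markers were lower at 8 of 9. Their part in the members' changes was not tested.

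The members did not share a single pattern over the 12 rats. Likeness was measured as the root mean square difference between log2 CPM centred on each gene's own mean, over 12 libraries, as a description with no test. The closest members were *Sox9* and *Pdgfra* (0.26), and the most distant were *Meox1* and *Scx* (1.09). Of the 4 MI rats, rat 57 had the highest *Meox1*, *Runx2*, *Sox9* and *Wt1* and the lowest *Prrx1*, *Pdgfra*, *Tcf21* and *Scx*. Several of these ranks were near ties. *Sox9* was 29.64 CPM in rat 57 and 29.48 in rat 61, and *Pdgfra* was 113.1 CPM in rat 57 and 113.5 in rat 36. *Scx* was 2.35 CPM in rat 57 and 2.39 in rat 61. The mean log2 CPM of activated fibroblast markers in rat 57, 4.78, was also the lowest in MI, where the others had 5.36 to 5.56.

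Among 10929 other genes with an average log2 CPM of at least 1, the nearest to each risen member were as follows. *Prrx1* lay nearest to *Fam171b*, *Col1a2* (a chain of type I collagen) and *Mmp19* (a matrix metalloproteinase), each at 0.14. *Pdgfra* lay nearest to *Add3*, *Ddr2* (a collagen receptor of fibroblasts) and *Anxa4*, each at 0.09. *Runx2* lay nearest to *Cp* (ceruloplasmin, 0.18), *Plod2* (a collagen lysyl hydroxylase, 0.21) and *Fstl1* (a secreted glycoprotein of stromal cells, 0.23). The genes nearest to *Runx1* were *Pi16* (0.31), *Pak1* (0.32) and *Adcy7* (0.33). Those nearest to *Sox9* were *Evc* (a ciliary protein of Hedgehog signalling, 0.14), *Mtmr11* (0.14) and *Il1r1* (an interleukin-1 receptor, 0.15). *Meox1* lay nearest to *Map3k6* (0.22), and *Ch25h* (cholesterol 25-hydroxylase) was at 0.42. These had log2 fold changes of 1.804 and 1.48 in MI versus Sham and of -0.76 and -0.65 in MI + UA versus MI. They were selected for their likeness to *Meox1* over these same libraries, so their values are a description of that choice.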

How the data were processed

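RNA from paraffin sections of 12 rat hearts was sequenced by the authors, with 1 library per rat. They extracted it with an FFPE kit, prepared strand-specific libraries after ribosomal RNA depletion by their protocol (the sample labels give polyA RNA instead, so how RNA was selected is uncertain), mapped reads to the mRatBN7.2 build with STAR 2.6.1c, counted them per Ensembl gene with htseq-count and inspected runs with MultiQC 1.8. The strand setting of the counting is not given in the sources used here, so reads of overlapping antisense genes cannot be told apart. The deposited values are raw counts, and the 5 summary lines of htseq-count were left out of library totals.

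The 18182 genes that reached 10 counts over all libraries were compared with edgeR 4.0.16 (R 4.3.3; TMM, glmQLFit and glmQLFTest, 3 groups in one fit, Benjamini-Hochberg adjustment, threshold 0.05). Standard errors are the log2 fold change divided by the square root of F, and 95% intervals use the t quantile of the fit. Log2 CPM used a prior count of 1. Relative levels were compared by an exact permutation test (two-sided, 70 groupings). DESeq2 1.42.0, another normalization, other filters, thinning to 6228706 reads, 2-group fits, leaving out each rat and rat 66 counted in MI were tried. Rat libraries differed by more than sampling noise within every group. No source says whether rats shared a litter or surgery day. A further MI + UA library, excluded by the authors, was not analysed here.

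The members and gene lists were chosen with earlier results of these data known. Named genes were all 10 members; in each list, the 2 largest rises and 2 largest falls past the threshold at an average log2 CPM of at least 0, or the 2 highest genes where none passed; and the 3 genes nearest to each changed member. Partner, PDGF and regulator genes beyond this rule, *Upk3b*, *Upk1b*, *Hapln1*, *Bglap*, *Ibsp*, *Ptprc*, *Acan* and *Adipoq* were added after their values were seen. Some genes that the rule names are not reported here.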

Additional observations from a re-analysis of the deposited data

Results flagged for a closer look

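Within each group of 4 rats, a rat counted as far from the others when its gap to the nearest rat, divided by the whole range of the group, was above Dixon's 95% critical value. Of 75 groups of values examined, 5 exceeded it, and chance gives about 1 in 20. For *Scx* in MI, rat 36 was highest at 4.24 CPM, the others lying at 2.35 to 2.53 CPM (ratio 0.908). For *Runx2* relative to resident fibroblast markers, Sham rat 38 was lowest at -3.65 on the log2 scale, against -3.11 to -3.00 in the others (ratio 0.836), and MI rat 57 was highest at -2.33, against -2.91 to -2.82 (ratio 0.854). For *Tcf21* relative to the same markers, MI + UA rat 64 was highest at -3.79, the others lying at -4.12 to -4.08 (ratio 0.859). The share of reads on genes, among those on genes, ambiguous or on no feature, was lowest in MI + UA rat 58 at 46.2%, against 50.3% to 50.8% in the other MI + UA rats (ratio 0.880).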

How the results depend on the processing

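The counts of members past the threshold were 6, 0 and 5 in MI versus Sham, MI + UA versus MI and MI + UA versus Sham, and each was the same in 16 alternative fits, which also called the same members. The signs of several changes that missed the threshold depended on the rats. Leaving out 1 rat in turn gave log2 fold changes in MI versus Sham of -0.0551 to 0.22 for *Wt1*. In MI + UA versus Sham it gave -0.25 to 0.0292 for *Wt1*. In MI + UA versus MI it gave -0.20 to 0.29 for *Scx*, -0.0087 to 0.13 for *Runx2*, -0.0713 to 0.12 for *Sox9*, -0.13 to 0.22 for *Tcf21*, -0.0166 to 0.29 for *Prrx1* and -0.0338 to 0.15 for *Pdgfra*. Thinning every library to the smallest total gave -0.0099 for *Sox9* in MI + UA versus MI and -0.0279 for *Twist1* in MI + UA versus Sham, and counting rat 66 in MI gave 0.0578 for *Twist1* in MI + UA versus MI. On the scale relative to fibroblast markers, MI versus Sham with activated markers as reference reached an exact permutation adjusted p of 0.0476 for *Scx* (-1.98), *Tcf21* (-1.20), *Twist1* (-1.26), *Prrx1* (-0.68, reversed from 0.09), *Wt1* (-1.61) and *Pdgfra* (-1.25), and gave -0.28 for *Runx2*, while 75.8% of all genes did not overlap on that scale. With rat 66 counted in MI, *Runx2* (0.52) and *Pdgfra* (-0.46) reached an exact permutation adjusted p of 0.0397. Leaving out 1 rat gave -0.0024 to 0.15 for *Prrx1* in MI versus Sham. For MI + UA versus MI it gave -0.12 to 0.28 for *Scx*, -0.0098 to 0.21 for *Runx2*, -0.10 to 0.19 for *Sox9* and -0.0052 to 0.20 for *Tcf21*. The median over the markers gave -0.0642 for *Scx*, -0.0081 for *Runx2*, -0.0601 for *Sox9*, -0.0102 for *Tcf21* and -0.0391 for *Pdgfra* in that comparison, and counting rat 66 in MI gave -0.0523 for *Scx* and -0.0588 for *Sox9*. The cause of these moves was not tested. No paired analysis was possible because every rat belongs to a single group, and no rat numbers are shared. *Meox1*, *Twist1*, *Scx* and *Tcf21* had 3 to 79 reads per library.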
